A study of Mus musculus with 12 samples.

Results

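Lpl, Gpihbp1, Angptl4, Cd36, Fabp4, Fabp5, Slc27a1, Acsl1, Aqp7 and Lmf1, the genes of fatty acid uptake and of the lipoprotein lipase axis, were followed in epididymal fat after epinephrine. They were picked out by gene symbol and are 10 of the 27179 genes in the deposited count table. All 10 passed the filter on low counts, which left 16175 genes. The tissue was epididymal white adipose tissue (eWAT), the visceral fat pad that lies along the epididymis, from male C57BL/6J mice fed chow. In the epinephrine group, 6 mice received sodium epinephrine into the peritoneum at 0.5 mg/kg, with listed ages of 18 to 23 weeks. In the vehicle group, 6 mice received the same volume of saline, with listed ages of 12 to 17 weeks. Fat was taken 1 h after the injection in both groups. Listed ages climb by exactly 1 week per sample, from vehicle 1 at 12 weeks to epinephrine 6 at 23 weeks. Whether they are the true ages could not be checked, and taken as listed, age and treatment cannot be told apart. Each mouse gave 1 library, named here by its group and replicate number.

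Fat cells take up most of their fatty acid from circulating triglyceride. Lipoprotein lipase, made by adipocytes, is carried across the capillary wall by GPIHBP1 and splits the triglyceride of chylomicrons and VLDL on the luminal face. The fatty acids then enter the cell with the help of CD36 and FATP1, are bound by small carrier proteins and are joined to coenzyme A by ACSL1. ANGPTL4 inactivates the lipase, and its level in adipose tissue is known to rise in fasting, when fat releases fatty acid. Epinephrine sets off that release through beta-adrenergic receptors, and the glycerol set free leaves the adipocyte through the channel AQP7. The comparison asked how much the transcripts of this uptake machinery had moved 1 h after the hormone.

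Libraries held between 24821601 and 31731730 assigned reads with epinephrine and between 25442480 and 34405433 with vehicle. Values are CPM, assigned reads scaled to a common library total after TMM normalization. Markers of adipocytes, 12 in all (Adipoq, Plin1 and others, none among the 10 genes), were abundant and summed to 15480 to 35820 CPM with epinephrine and 11850 to 38430 CPM with vehicle. None of the 12 was at 0 in any library, and 0 of 12 passed the test (edgeR; 0 at unadjusted p under 0.05; 0 by DESeq2, limma-voom and limma on the deposited values). RNA of the adjoining epididymis was present in very unequal amounts. The 12 tested epididymal markers summed to 31.6 to 31500 CPM with epinephrine and 10.2 to 43790 CPM with vehicle. Gpx5, a secreted epididymal peroxidase, took over 0.5% of counts in epinephrine 1, epinephrine 2 and vehicle 2. In the same libraries the mean log2 CPM of the adipocyte markers was lowest, at 9.69 in epinephrine 1, 10.37 in epinephrine 2 and 9.25 in vehicle 2, against 10.41 to 11.02 in the other 9 libraries. In whole tissue, fewer cells of a type and less RNA per cell cannot be told apart.

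With all 12 libraries, none of the 10 genes passed the test (edgeR's quasi-likelihood test, adjusted p over all genes; 0 higher and 0 lower, and 0 at unadjusted p under 0.05). Of all genes tested, 6.23% passed, 2.65% higher and 3.58% lower with epinephrine. At unadjusted p under 0.05 there were 2789 of the 16175 (edgeR). With the replicate number as a block, 365 genes in place of 579 were lower. DESeq2 and limma on the deposited values also called 0 of the 10, with 1 at unadjusted p under 0.05 in each, which was Angptl4 in both. Limma-voom with sample weights called 1 of the 10 higher, again Angptl4, against 6.34% of all genes. The CPM of the groups overlapped for all 10, while 4.79% of all genes had groups that did not overlap. The median log2 fold change of the 10 was 0.14, that of the 12 adipocyte markers was 0.14, and that of all tested genes was -0.001.

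**Figure D1:**
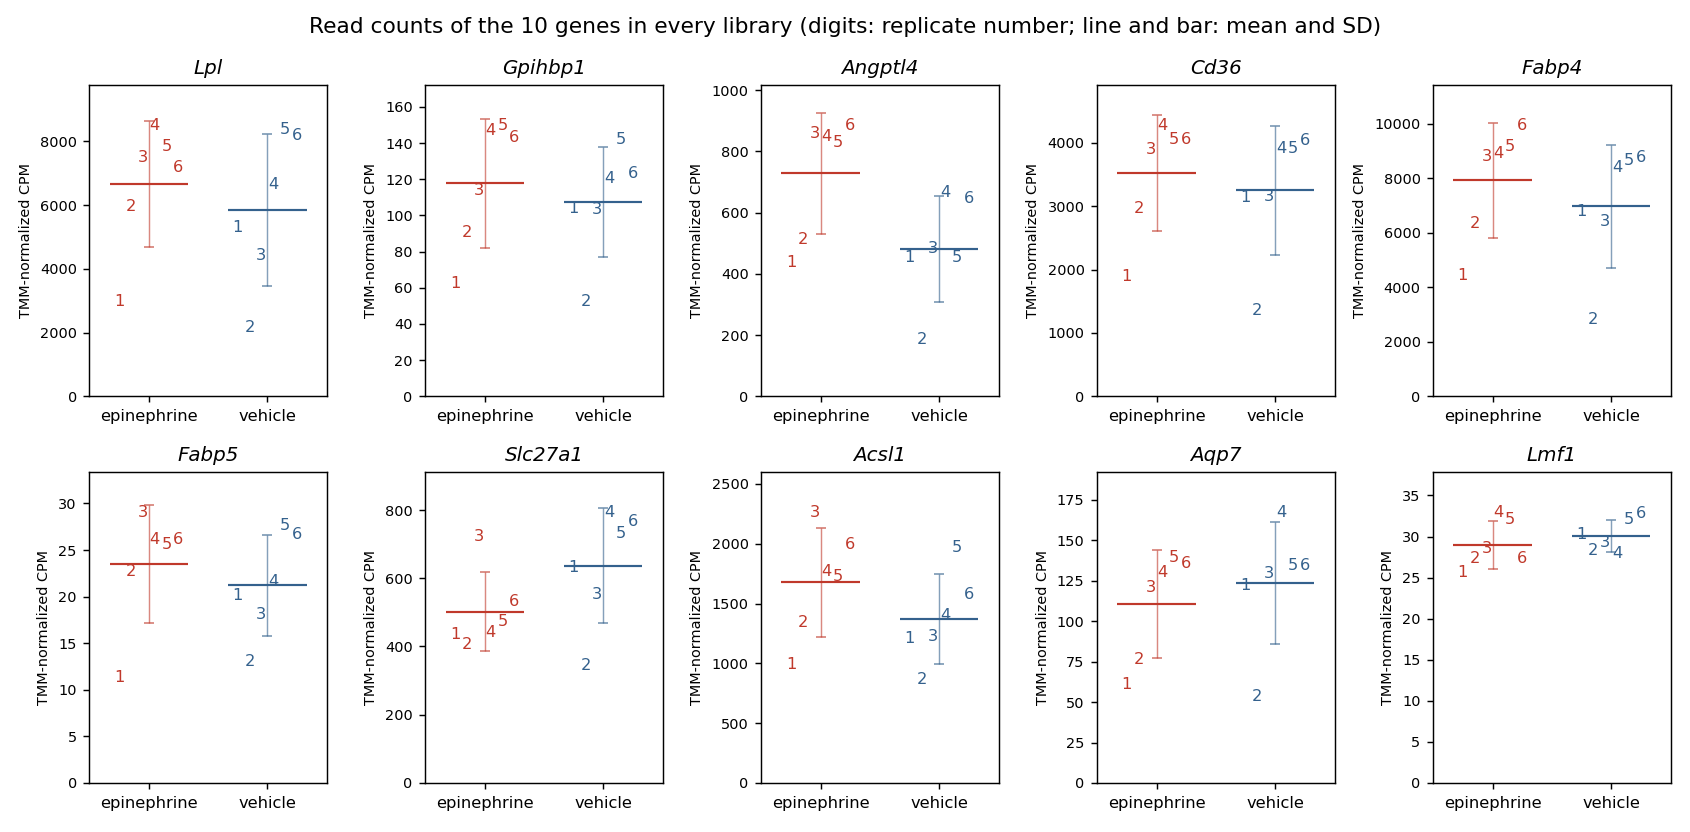
TMM-normalized CPM of each gene in the 12 libraries, with epinephrine on the left and vehicle on the right of each panel. Digits are replicate numbers, and lines and bars are the mean and SD of 6 libraries. Epinephrine 1 and vehicle 2 lie lowest in their groups for Lpl, Gpihbp1, Angptl4, Cd36, Fabp4, Fabp5, Acsl1 and Aqp7.

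Per kilobase of gene length, the levels of the genes spanned a wide range. Fabp4, the main fatty acid carrier of adipocytes, averaged 12340 ± 3280 CPM per kilobase with epinephrine and 10850 ± 3512 with vehicle (SD, n = 6 each). Lpl followed at 1645 ± 491 CPM per kilobase with epinephrine and 1443 ± 589 with vehicle. Lmf1 was lowest, at 15.6 ± 1.55 CPM per kilobase with epinephrine and 16.2 ± 1.07 with vehicle. Over the 12 libraries the order was Fabp4, Lpl, Cd36, Acsl1, Angptl4, Slc27a1, Gpihbp1, Aqp7, Fabp5 and Lmf1. Most neighbours kept this order in all 12 libraries. The exceptions were Angptl4 over Slc27a1, Slc27a1 over Gpihbp1, and Fabp5 over Lmf1, each of which held in 10 of 12. Angptl4 lay above Slc27a1 in 6 of 6 epinephrine libraries and in 4 of 6 vehicle libraries.

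**Figure D2:**
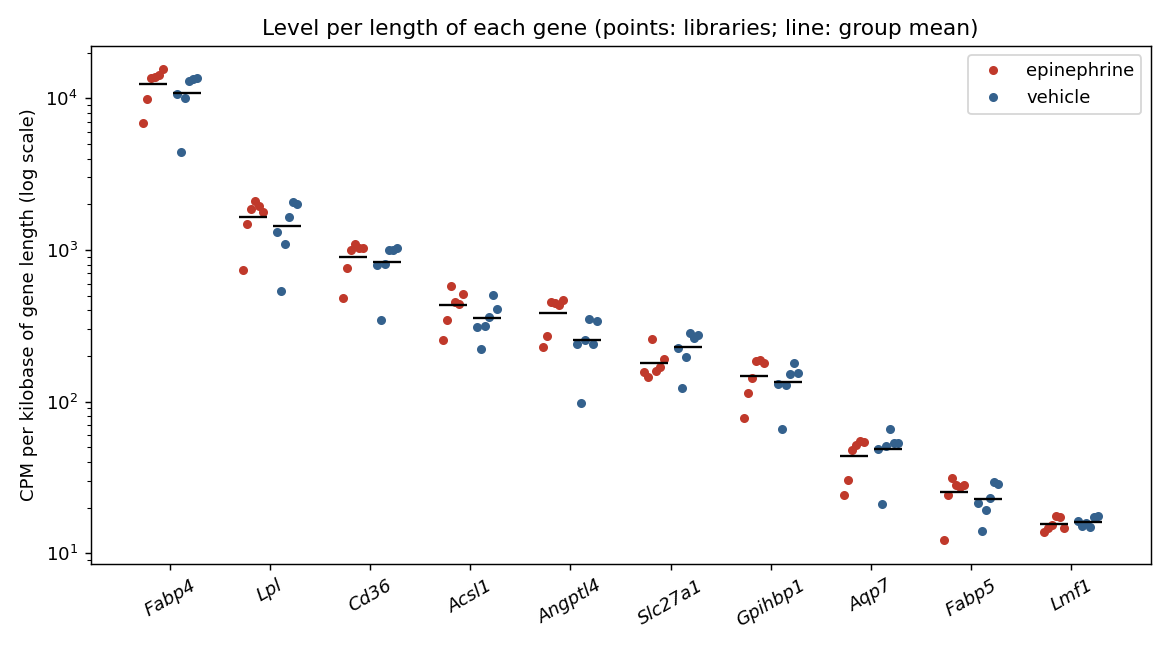
CPM per kilobase of gene length on a log scale, for each gene in order of its mean. Points are libraries, epinephrine on the left and vehicle on the right, and black lines are group means. Fabp4 stands at 12340 with epinephrine and 10850 with vehicle, and Lmf1 at 15.6 and 16.2.

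Lpl, the lipase itself (Entrez gene 16956, chromosome 8, 68880555 to 68906932 in GRCm38), had 2984, 5963, 7494, 8500, 7838 and 7177 CPM in epinephrine 1 to 6, against 5283, 2159, 4426, 6638, 8385 and 8176 CPM in vehicle 1 to 6. The groups overlapped almost entirely, and the lowest value of each was in a library rich in epididymal RNA. On the log2 scale the change was 0.19 (SE 0.33, 95% interval -0.54 to 0.92, edgeR adjusted p = 0.89).

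Gpihbp1, which anchors the lipase on capillary endothelium (chromosome 15, 75596630 to 75598213), had 62.1, 90.6, 113.5, 146.8, 149.7 and 143.3 CPM in epinephrine 1 to 6, against 103.9, 52.2, 103.1, 120.2, 142.1 and 123.1 CPM in vehicle 1 to 6. Again the groups overlapped, with 3 epinephrine libraries above every vehicle library. The log2 fold change was 0.13 (SE 0.26, 95% interval -0.43 to 0.69, edgeR adjusted p = 0.903). Set against the mean of 14 endothelial markers, its log2 CPM stood 0.41 ± 0.10 higher with epinephrine and 0.35 ± 0.10 higher with vehicle (SD, n = 6 each), with ranges of 0.27 to 0.51 and 0.23 to 0.51. Of those 14 markers, 1 passed, the tight junction gene Cldn5 (2.09-fold higher, edgeR adjusted p = 0.0355). Its call held in 4 of 12 fits that each left out 1 library (edgeR adjusted p of 0.0847 at most). It held in 14 of 14 other settings, but not within numbers 1 to 3 (edgeR adjusted p = 0.714). Rbp7, a retinol-binding protein of capillary endothelium, did not pass (1.88-fold, edgeR adjusted p = 0.106) but was called higher by DESeq2, by limma-voom, with the replicate block, without high Gpx5, within numbers 4 to 6 and with the adipocyte covariate. That covariate also gave Meox2, Egfl7, Tcf15 and Tie1 as lower (edgeR), where 1805 of 16175 genes were lower. Numbers 4 to 6 gave Tcf15 as lower, where 632 of 15830 genes were lower. The 14 endothelial markers summed to 962 to 2030 CPM with epinephrine and 820 to 1981 CPM with vehicle.

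Lmf1, an endoplasmic reticulum protein that lipases need in order to fold (chromosome 17, 25579174 to 25662831), was the least variable of the 10. It had 25.7, 27.4, 28.5, 32.95, 32.05 and 27.4 CPM in epinephrine 1 to 6, against 30.2, 28.3, 29.2, 27.9, 32.0 and 32.8 CPM in vehicle 1 to 6. The highest library was 1.28-fold above the lowest, against 2.30-fold to 4.77-fold for the other 9 genes. Its log2 fold change was -0.05 (SE 0.07, 95% interval -0.22 to 0.11, edgeR adjusted p = 0.845), the narrowest interval of the 10.

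Angptl4, the secreted inhibitor of the lipase (Entrez gene 57875, chromosome 17, 33774900 to 33781575), came nearest to a change. It had 437.9, 511.8, 857.6, 849.0, 828.5 and 884.6 CPM in epinephrine 1 to 6. In vehicle 1 to 6 it had 453.3, 185.6, 484.1, 664.6, 454.6 and 647.4 CPM. In 4 epinephrine libraries it was above every vehicle library, and the 2 that overlapped were those rich in epididymal RNA. The log2 fold change was 0.60, or 1.51-fold (SE 0.29, 95% interval -0.04 to 1.23, edgeR adjusted p = 0.328).

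Adipocyte and epididymal RNA content was then taken into account in several ways. After removal of epinephrine 1, epinephrine 2 and vehicle 2, the libraries with Gpx5 over 0.5% of counts, Angptl4 was higher with epinephrine, at a log2 fold change of 0.66 (SE 0.14, edgeR adjusted p = 0.0136), and 4.87% of all genes were called higher. With the mean log2 CPM of the 12 adipocyte markers as a covariate it was 0.52 (SE 0.12, edgeR adjusted p = 0.0143), against 7.39% of all genes called higher. Both calls held when each library was left out in turn, with adjusted p of 0.00923 to 0.039 over 9 such fits and 0.0122 to 0.0444 over 12 (edgeR). With Adipoq and Plin1 alone as the covariate, Angptl4 and Fabp4 were higher, at log2 fold changes of 0.65 (SE 0.11, edgeR adjusted p = 0.00225) and 0.23 (SE 0.06, edgeR adjusted p = 0.0256), against 6.95% of all genes. With the epididymal score as the covariate Angptl4 did not pass (log2 fold change 0.65, SE 0.21, edgeR adjusted p = 0.0827). Over 27 alternatives its log2 fold change stayed between 0.45 and 0.73 and its adjusted p between 0.00225 and 0.79 (edgeR, DESeq2 or limma). Within numbers 4 to 6 alone it had 828.5 to 884.6 CPM with epinephrine and 454.6 to 664.6 CPM with vehicle, and did not pass (log2 fold change 0.53, SE 0.15, edgeR adjusted p = 0.074).

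Measured against the adipocyte markers of the same library, log2 Angptl4 lay between -1.37 and -0.92 with epinephrine and between -2.18 and -1.40 with vehicle. All 6 epinephrine libraries were above all 6 vehicle libraries on this relative scale, where 1.86% of all tested genes had groups that did not overlap. The means were -1.16 ± 0.18 with epinephrine and -1.67 ± 0.27 with vehicle (SD, n = 6 each). Vehicle 5 was the lowest, and without it the covariate fit gave 0.43 (edgeR adjusted p = 0.0166). The ratio of Angptl4 to Lpl, each per kilobase, was 0.24 ± 0.04 with epinephrine and 0.18 ± 0.04 with vehicle, and 3 of 6 epinephrine libraries were above every vehicle library. This scale assumes that the markers themselves did not respond to the hormone within 1 h. Their log2 fold changes ran from -0.31 to 0.40. With the score of all 12 as the covariate, Cidec passed as higher and Cfd as lower (edgeR), though both are part of that score. In that fit 1196 of 16175 genes were higher and 1805 lower.

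**Figure D3:**
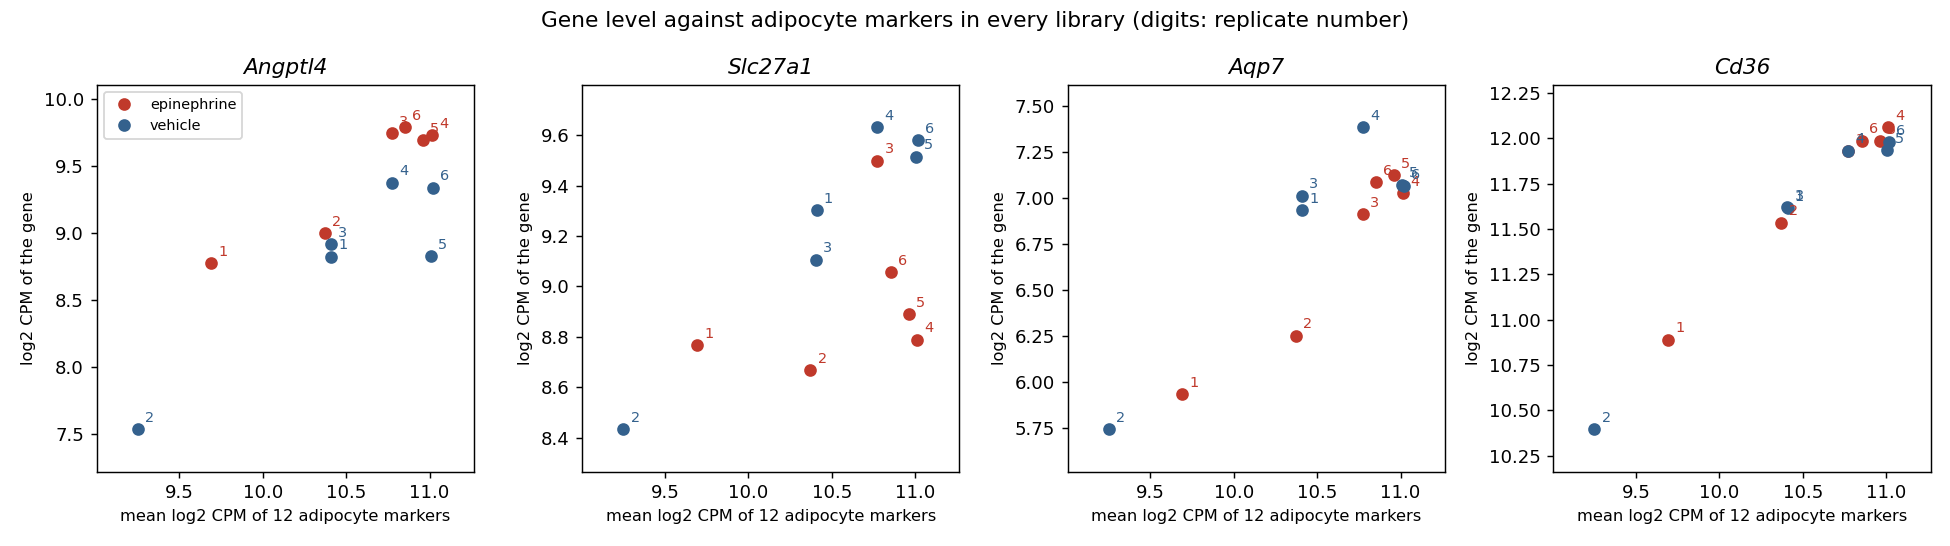
Log2 CPM of Angptl4, Slc27a1, Aqp7 and Cd36 against the mean log2 CPM of 12 adipocyte markers, for the 12 libraries (red epinephrine, blue vehicle, digits the replicate number). Cd36 follows the markers closely in both groups, Angptl4 lies higher with epinephrine at a given marker level, and Slc27a1 of epinephrine 4 to 6 lies below vehicle 4 to 6.

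Cd36, the scavenger receptor that takes up long-chain fatty acid (chromosome 5, 17781690 to 17888959), had 1898, 2967, 3896, 4274, 4053 and 4059 CPM in epinephrine 1 to 6, against 3137, 1347, 3153, 3907, 3914 and 4032 CPM in vehicle 1 to 6. The 3 libraries numbered 4 to 6 were nearly level in each group, and the low values were again those of epididymis-rich libraries. Its log2 change was 0.12 (SE 0.27, 95% interval -0.48 to 0.72, edgeR adjusted p = 0.923), and it was -0.02 without vehicle 2. Relative to the adipocyte markers, the spread of Cd36 over the 12 libraries shrank from 3.17-fold to 1.22-fold. With those markers as the covariate the value was 0.03 (SE 0.05, edgeR adjusted p = 0.725).

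Slc27a1, which encodes FATP1, a fatty acid transporter with acyl-CoA synthetase activity (Entrez gene 26457, chromosome 8, 71568728 to 71587307), had a negative fold change. It had 435.6, 406.4, 723.5, 442.3, 474.2 and 532.4 CPM in epinephrine 1 to 6. The vehicle libraries, in the same order, had 631.4, 345.5, 551.2, 793.4, 731.3 and 765.6 CPM. Epinephrine 3 had the highest CPM of the treated mice, and vehicle 2 the lowest of the controls. Relative to the adipocyte markers, log2 Slc27a1 lay between -2.22 and -0.92 with epinephrine and between -1.49 and -0.82 with vehicle. On that scale 4 epinephrine libraries were below every vehicle library. Epinephrine 1 (-0.92) and epinephrine 3 (-1.28) were within the vehicle range. The share of all genes separated to this degree was not computed. The log2 fold change was -0.34 (SE 0.21, 95% interval -0.80 to 0.11, edgeR adjusted p = 0.478), and -0.36 with the adipocyte covariate (SE 0.14, edgeR adjusted p = 0.0985). Within numbers 4 to 6 it fell to 442.3 to 532.4 CPM with epinephrine, against 731.3 to 793.4 CPM with vehicle (-0.66 on the log2 scale, SE 0.09, edgeR adjusted p = 0.00799), where 3.99% of all genes were called lower. That call held in all 6 fits that left out 1 more library, with edgeR adjusted p of 0.0116 to 0.0483. Within numbers 1 to 3 it had 406.4 to 723.5 CPM with epinephrine and 345.5 to 631.4 CPM with vehicle, a log2 fold change of 0.05 (SE 0.34, edgeR adjusted p = 0.997). No gene was called there, with 1356 of 16709 at unadjusted p under 0.05 (edgeR). The difference between the 2 sets of numbers was -0.70 on the log2 scale (edgeR interaction test, adjusted p = 0.876), so an effect that differs between them was not shown.

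Acsl1, which activates fatty acid for storage or oxidation (chromosome 8, 46471037 to 46536051), had 987, 1343, 2263, 1764, 1724 and 1990 CPM in epinephrine 1 to 6. The vehicle libraries, in the same order, had 1204, 863.6, 1225, 1400, 1967 and 1578 CPM. The groups overlapped, with 2 epinephrine libraries above every vehicle library. The estimate was 0.29 on the log2 scale (SE 0.23, 95% interval -0.21 to 0.79, edgeR adjusted p = 0.63). In the GENCODE annotation the unclassified locus Gm45244 overlaps Acsl1 on the other strand and has no row of its own in the counts, and the strand setting of the counting is unknown. The ratio of Slc27a1 to Acsl1, per kilobase, was 0.43 ± 0.10 with epinephrine and 0.65 ± 0.10 with vehicle (SD, n = 6 each). In 5 of 6 epinephrine libraries that ratio was below every vehicle library. The share of all genes separated in this way was not computed. Set against Cd36, Slc27a1 stood at 0.21 ± 0.07 with epinephrine and 0.28 ± 0.04 with vehicle. There 4 of 6 epinephrine libraries were below every vehicle library.

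**Figure D4:**
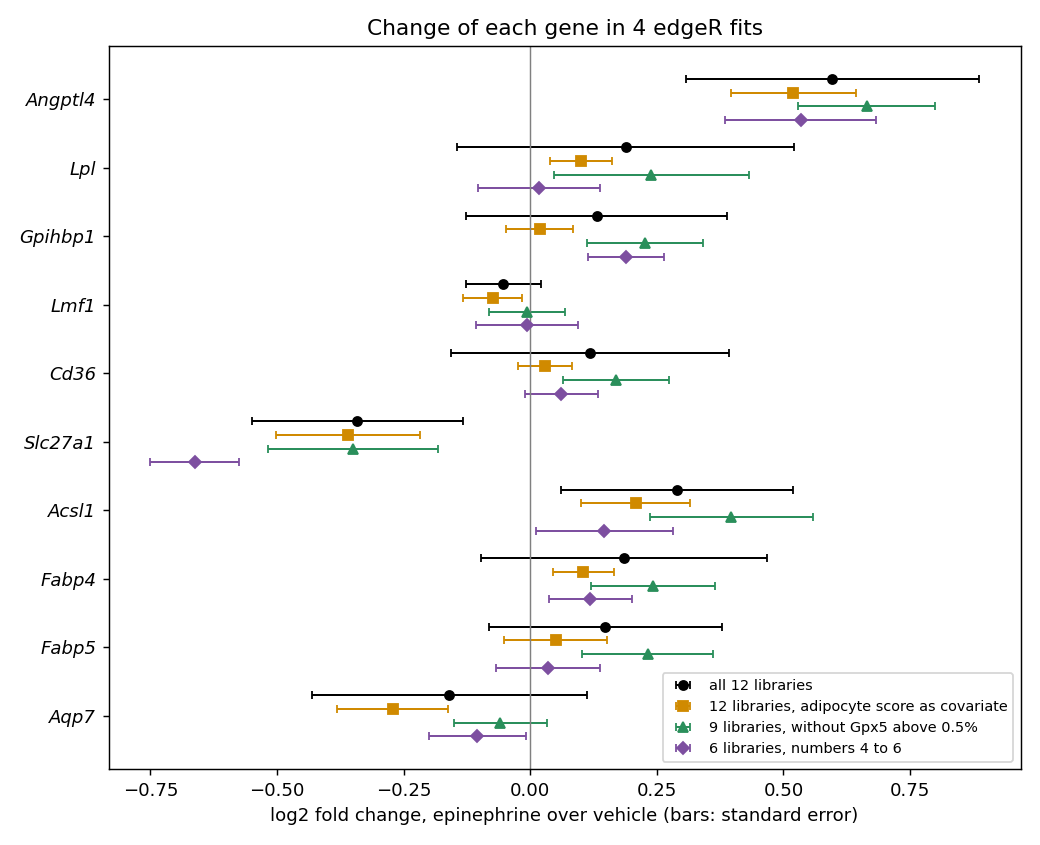
Log2 fold change of each gene, epinephrine over vehicle, with its standard error, in 4 edgeR fits: all 12 libraries, all 12 with the adipocyte score as a covariate, 9 libraries without high Gpx5, and numbers 4 to 6 alone. Angptl4 lies between 0.52 and 0.66 in all 4, and Slc27a1 between -0.66 and -0.34. Numbers 1 to 3 alone, not plotted, gave 0.05 for Slc27a1 (SE 0.34).

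Fabp4 (chromosome 3, 10204342 to 10208616), the most abundant of the 10, had 4413, 6326, 8784, 8917, 9174 and 9926 CPM in epinephrine 1 to 6, against 6789, 2831, 6419, 8370, 8639 and 8762 CPM in vehicle 1 to 6. In 4 epinephrine libraries it was above every vehicle library, but by a small margin. Its estimated log2 change was 0.19 (SE 0.28, 95% interval -0.43 to 0.80, edgeR adjusted p = 0.866). Fabp5, the epidermal-type carrier whose gene lies 187732 bases from Fabp4 on the same chromosome, had 11.3, 22.7, 29.1, 26.2, 25.6 and 26.2 CPM in epinephrine 1 to 6, against 20.1, 13.1, 18.1, 21.6, 27.7 and 26.6 CPM in vehicle 1 to 6. Again the low values were those of epinephrine 1 and vehicle 2. Its log2 fold change was 0.15 (SE 0.23, 95% interval -0.35 to 0.65, edgeR adjusted p = 0.866). Per kilobase, Fabp4 exceeded Fabp5 by 405-fold to 565-fold with epinephrine and by 314-fold to 563-fold with vehicle. RefSeq also lists a Fabp5 pseudogene, Fabp5l2, and how reads shared with such copies were counted is not given in the sources used here.

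Aqp7, the glycerol channel of adipocytes (chromosome 4, 41033074 to 41048237), had 61.0, 76.2, 120.7, 130.4, 139.7 and 136.0 CPM in epinephrine 1 to 6. In vehicle 1 to 6 it had 122.3, 53.5, 129.4, 167.4, 134.6 and 134.2 CPM. The groups overlapped, at a log2 fold change of -0.16 (SE 0.27, 95% interval -0.75 to 0.43, edgeR adjusted p = 0.885). With the adipocyte covariate it was -0.27 (SE 0.11, edgeR adjusted p = 0.105). As a ratio to Fabp4, per kilobase, Aqp7 stood at 0.00306 to 0.00387 with epinephrine and at 0.0039 to 0.00513 with vehicle. These ratios did not overlap, but the gap between 0.00387 and 0.0039 was very small. The groups of 3.37% of all genes did not overlap when set against Fabp4, and the Angptl4 ratio was among them, at 0.0273 to 0.0335 with epinephrine and 0.0178 to 0.0268 with vehicle.

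The sequence before a transcription start was in the RefSeq table for 5 of the 10 genes. The 4 shown here are those of the uptake, activation and glycerol genes, none of which passed with all 12 libraries. A stretch that crossed the outer end of the RefSeq gene was cut there and the part outside the gene kept, and none of the 4 overlaps an annotated exon of its gene. They are Slc27a1 at chr8:71568621-71568727 (plus strand), Acsl1 at chr8:46470787-46471036 (plus strand), Cd36 at chr5:17835897-17836146 (minus strand, before a start inside the range of the RefSeq gene, and not cut) and Aqp7 at chr4:41048238-41048386 (minus strand), all in GRCm38.p6 and written 5′ to 3′. Capitals, found in Cd36 alone, mark a match to one of the motifs searched.
Slc27a1: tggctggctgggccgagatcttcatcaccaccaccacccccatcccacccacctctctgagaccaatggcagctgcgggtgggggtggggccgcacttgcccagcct
Acsl1: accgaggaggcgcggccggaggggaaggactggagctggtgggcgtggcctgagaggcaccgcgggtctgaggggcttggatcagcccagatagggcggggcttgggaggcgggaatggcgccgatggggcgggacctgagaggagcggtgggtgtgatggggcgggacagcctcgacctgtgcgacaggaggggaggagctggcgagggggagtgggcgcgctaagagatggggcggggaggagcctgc
Cd36: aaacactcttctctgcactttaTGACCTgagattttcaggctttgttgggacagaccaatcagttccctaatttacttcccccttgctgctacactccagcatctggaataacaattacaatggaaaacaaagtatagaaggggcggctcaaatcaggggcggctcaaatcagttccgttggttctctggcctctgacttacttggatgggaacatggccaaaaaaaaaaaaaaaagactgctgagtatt
Aqp7: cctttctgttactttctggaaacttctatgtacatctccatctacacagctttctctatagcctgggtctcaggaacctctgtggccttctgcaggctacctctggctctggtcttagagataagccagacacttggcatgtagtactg

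The motifs were searched on both strands in the 250 bases before the start of each of the 5 genes. They were the cyclic AMP response element TGACGTCA and its core TGACG, the nuclear receptor core AGGTCA and its direct repeat bound by PPAR and RXR, in which AGGTCA stands 2 times with 1 base between, the NR4A element AAAGGTCA, the AP-1 site TGANTCA and the C/EBP site TTGCGCAA. AGGTCA is contained in the direct repeat and in the NR4A element, and TGACG in the full cyclic AMP element. AGGTCA matched once before Cd36, at position -228 from the start, and once before Aqp7, at -49, which lies in the part cut off. TGACG matched once before Lmf1, at -187. Slc27a1 and Acsl1, whose windows were rich in G and C at 66.4% and 72.0%, held no match. Of 32851 such windows in the table, 14.0% held AGGTCA, 17.8% TGACG, 6.75% TGANTCA, 1.55% TGACGTCA, 1.34% AAAGGTCA, 0.164% TTGCGCAA and 0.0335% the direct repeat. These are matches of letters and not tests of binding.

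Genes with the most similar variation between mice were sought for each of the 10 among 10520 genes. The measure was Pearson's r of the deviations of log2 CPM from the group mean over 12 libraries. For Lpl they were Glud1 (r = 0.996) and Abcd2 (0.994), and for Gpihbp1 they were Shisa5 (0.994), Oxsr1 (0.994) and Msn (0.993). For Angptl4 they were Cenpv (0.982), Cgnl1 (0.98) and A130040M12Rik (0.976), and for Cd36 they were Dusp22, Jazf1 and Trf (0.992 each). Fabp4 was most like Cd302, Cd300ld (0.991 each) and Aox1 (0.989), and Fabp5 most like 4931406C07Rik (0.992), Clstn3 (0.981) and Ppp1r1a (0.977). Aqp7 was most like Ushbp1 (0.993), Rapgef1 (0.989) and Cavin2 (0.988), and Acsl1 most like Adam17 (0.98), Gimap4 (0.972) and Pik3ap1 (0.97). The nearest genes were less close for Slc27a1, with Gulp1 (0.951), Arxes2 (0.943) and Bcl6 (0.937), and for Lmf1, with Ccndbp1 (0.929), Cops3 and Rheb (0.91 each). All these values share the libraries' mixture of fat and epididymis and are a description only.

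Other regulators of the lipase and receptors for lipoproteins gave little. Of 17 tested, 0 passed in either direction with edgeR (2 at unadjusted p under 0.05; 0 by DESeq2 and by limma on the deposited values; 1 by limma-voom, Apoc3). Their median log2 fold change was 0.13. Apoc3, an apolipoprotein that inhibits the lipase, had a log2 fold change of 1.13 (SE 0.44) at the low level of 1.88 ± 1.46 CPM with epinephrine and 0.853 ± 0.275 CPM with vehicle (SD, n = 6 each). Furin, a protease that cleaves lipoprotein lipase, had 0.16 (SE 0.07). Apoa5 was too low to be tested.

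Among 14 other genes of fatty acid transport, binding and activation, 0 passed with edgeR (2 at unadjusted p under 0.05; 0 by limma on the deposited values; 1 lower by DESeq2; 1 higher and 1 lower by limma-voom), with a median log2 fold change of 0.16. Slc27a3, of the same transporter family as Slc27a1, was the lower gene by both tools. It stood at 5.90 ± 1.03 CPM with epinephrine and 8.23 ± 1.49 CPM with vehicle (SD, n = 6 each), a log2 fold change of -0.48 (SE 0.16, adjusted p = 0.112 with edgeR). EdgeR called Slc27a3 lower with the adipocyte covariate (1805 of 16175 genes lower) and without high Gpx5 (1028 of 16134). Slc27a2 was called higher by limma-voom, and by edgeR within numbers 4 to 6 (696 of 15830 genes higher). Fabp3, the heart-type carrier, had a log2 fold change of 1.11 (SE 0.38) at under 1 CPM, and Zdhhc5, which palmitoylates CD36, 0.17 (SE 0.08). Slc27a5, Acsl6, Fabp1, Fabp2, Fabp6 and Fabp7 were too low to be tested. Of 5 tested genes of glycerol transport and phosphorylation, 0 passed with edgeR, DESeq2, limma-voom or limma on the deposited values, and 0 were at unadjusted p under 0.05 with edgeR. Aqp11, Gpd1 and Aqp9 had log2 fold changes of 0.36, 0.32 and 0.71 with standard errors of 0.29, 0.30 and 0.92.

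Several regulators of these genes passed the test. Of 12 genes for PPARs and their partners, 2 were higher and 1 was lower (median log2 fold change 0.02). Of all genes tested, 2.65% were higher and 3.58% lower. This list and the next were chosen with earlier results of these data known. Cebpb, a transcription factor of early adipogenesis and of stress responses, rose 2.97-fold to 263 ± 62.8 CPM with epinephrine, against 88.5 ± 32.9 CPM with vehicle (SD, n = 6 each; edgeR adjusted p = 0.00473). Hif1a, the oxygen-sensing factor, rose 1.25-fold (edgeR adjusted p = 0.00987), though not within numbers 4 to 6 alone (0.0842). Rxrb, a partner of the PPARs, fell to 43.2 ± 2.71 CPM with epinephrine, against 50.2 ± 1.68 CPM with vehicle (SD, n = 6 each; adjusted p = 0.0296 with edgeR). It did not pass once the replicate number was a block (0.0743 with edgeR), and likewise in 9 of 12 fits that each left out 1 library, the highest being 0.115 without vehicle 4. Rxrb also fell short by limma on the deposited values, without high Gpx5 and within numbers 4 to 6. Its call held in 9 of 14 other settings, the block included, and not within numbers 1 to 3. Pparg, the master regulator of adipocytes that drives Lpl, Cd36 and Fabp4, had a log2 fold change of 0.04 (SE 0.33), and Ppara one of -0.24 (SE 0.11, edgeR adjusted p = 0.287).

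Of 15 tested PPAR-responsive genes, 4 were higher and 0 lower, against 2.65% and 3.58% of all genes tested. The median log2 fold change of the 15 was 0.07. The 4 higher genes were Pdk4, a brake on glucose oxidation (log2 fold change 2.13), Hilpda, an inhibitor of adipose triglyceride lipase (2.07), the lipid droplet protein gene Plin2 (1.53) and the thioesterase gene Acot2 (1.25). Angptl4 is itself a known PPAR target, at a log2 fold change of 0.60 that did not pass. With the adipocyte covariate, Plin2 and Angptl4 had log2 fold changes of 1.44 and 0.52.

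Lpl, Cd36, Fabp4 and Fabp5 are also known from macrophages, and Fabp4 from capillary endothelium. Of 10 macrophage markers, 0 passed with edgeR (1 at unadjusted p under 0.05; 1 higher, Cd14, by DESeq2, limma-voom and limma on the deposited values). They summed to 757 to 2118 CPM with epinephrine and 788 to 1714 CPM with vehicle. In the edgeR fit, 0 of 8 fibroblast and progenitor markers, 0 of 6 mesothelial, 0 of 3 tested skeletal muscle and 0 of 12 tested epididymal markers passed, while Tagln was higher among 6 markers of smooth muscle and pericytes. At unadjusted p under 0.05 there were 0 fibroblast, 0 mesothelial, 2 skeletal muscle, 0 epididymal and 2 smooth muscle markers. DESeq2, limma-voom and limma on the deposited values likewise called 0 fibroblast, mesothelial and epididymal markers, while DESeq2 called Tnnt3 and limma-voom Tnnt3 and Acta1 of skeletal muscle as higher. The part that these cell types had in the values of the 10 genes was not tested.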

How the data were processed

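RNA from eWAT of 12 mice was sequenced after library preparation by the SMARTER mRNA-Seq method that the labels describe. Tools listed without versions in the submitters' processing notes are HISAT2, featureCounts, FastQC, cutadapt and DESeq2, with build mm10. For strand setting and annotation, the sources used here give nothing. The authors deposited raw read counts per gene with gene lengths, and variance-stabilized values on a log2 scale for 20185 genes. Genes without a symbol numbered 1312, held 0.253% to 0.315% of counts per library and were kept.

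Counts were filtered with filterByExpr (minimum count 10, minimum total count 15), TMM-scaled and tested with edgeR 4.0.16 (glmQLFit, robust; R 4.3.3) in a fit of all 16175 genes, with Benjamini-Hochberg adjustment over all of them and a threshold of 0.05. Alternatives used limma 3.58.1 and DESeq2 1.42.0. The fit was tested on simulated data. Log2 CPM use a prior count of 1. CPM per kilobase divide by the deposited gene length, and no 5′ or 3′ bias was modelled. Scores are means of log2 CPM over a marker list.

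The genes and lists were chosen with earlier results of these data known. The text names the 10 genes, every gene of the pathway lists past the threshold (otherwise up to 3 with the smallest p), and the 3 genes most alike to each of the 10 at a mean log2 CPM of at least 3. A few genes that this rule would name are not reported here. Angptl4, Slc27a1 and Aqp7 ratios and other list genes are shown as examples chosen after values were seen. Positions and start sites are RefSeq GRCm38.p6, which all 10 genes matched by Entrez identifier. Groups and numbers come from the sample titles. Same-numbered libraries deviated together in all 6 pairs (correlation across genes 0.262 to 0.799), all above 0.1, but the most alike vehicle library had the same number for only 2 of 6 epinephrine libraries, numbers 2 and 6. The labels do not say what a number shares, so the block is an alternative. No 2 of 66 pairs of libraries held identical counts. The labels call the samples biological replicates.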

Additional observations from a re-analysis of the deposited data

Results flagged for a closer look

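In 5 of 40 checks of the 10 genes, a library stood apart from the other 5 of its group. The measure was its gap to its neighbour, as a share of the group's range, above Dixon's 95% critical value. Chance passes that value in about 1 of 20 groups. The checks share the same libraries and correlated genes, so they are not independent. Vehicle 2 had 1347 CPM of Cd36, and its group otherwise 3137 to 4032 CPM (gap 0.667 of the range). Epinephrine 1 had 11.3 CPM of Fabp5, and its group otherwise 22.7 to 29.1 CPM (0.642). Relative to the adipocyte markers, vehicle 2 stood apart by this check in 3 genes, as the highest of its group. Lmf1 stood at -4.43 there, against -6.01 to -5.49 (0.674), Fabp5 at -5.54, against -6.34 to -6.08 (0.675), and Acsl1 at 0.50, against -0.40 to -0.07 (0.633). Vehicle 2 had the largest share of Gpx5, at 1.99% of counts, and epinephrine 1 the next, at 1.09%. Their part in these values was not tested.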

How the results depend on the processing

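Over 27 alternatives, Lpl, Gpihbp1, Fabp5, Acsl1, Aqp7 and Lmf1 kept their direction and stayed short of the threshold. Of the 270 values for the 10 genes, 262 kept direction and side, 6 newly passed and 2 turned sign. Slc27a1 turned to 0.0522 within numbers 1 to 3 alone, and Cd36 to -0.0202 without vehicle 2 (0.24 at most when another library was left out). The count of the 10 genes higher was 1 with limma-voom, without high Gpx5 and with the adipocyte score, and 2 with Adipoq and Plin1 as a covariate. The count lower was 1 within numbers 4 to 6. Leaving out any 1 of the 12 libraries gave 0 higher and 0 lower. The replicate block changed no call among the 10 genes. It moved the genes called lower over the whole table to 365, against 579 without it, and Rxrb lost its call.

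Over all genes, 428 were higher and 579 lower. The higher count was 759 with DESeq2, 1026 with limma-voom, 228 at a threshold of 0.01, 645 with the epididymal score, 786 without high Gpx5, 0 within numbers 1 to 3, 696 within numbers 4 to 6, 1196 with the adipocyte score and 1124 with Adipoq and Plin1. The lower count was 1448 with library size scaling, 884 with DESeq2, 1503 with limma-voom, 185 at 0.01, 964 with the epididymal score, 1028 without high Gpx5, 0 within numbers 1 to 3, 1805 with the adipocyte score and 1730 with Adipoq and Plin1. With single libraries left out it ran from 276 (without vehicle 4) to 797 (without epinephrine 1), and the higher count from 317 to 549. Within numbers 1 to 3, 1356 of 16709 genes were at unadjusted p under 0.05 (edgeR). Library size scaling moved the median of all genes to -0.11 on the log2 scale, and Slc27a1 was then at -0.44 and Angptl4 at 0.49. The causes were not tested. The adipocyte covariates, the interaction test and the repeats within called fits were added after seeing the data. Fabp5, the least counted of the 10 genes, had 305 reads or more in every library.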

Other observations

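The sum of the 10 genes took 1.16% to 2.39% of all counts with epinephrine and 0.852% to 2.39% with vehicle, and Fabp4 with Lpl made up most of it. Between the 12 libraries the genes spread unequally. Lpl, Gpihbp1, Cd36 and Fabp4 had a spread of 2.87-fold to 3.94-fold in CPM, which relative to the adipocyte markers was between 1.22-fold and 1.44-fold. Slc27a1 had a spread of 2.30-fold in CPM and of 2.65-fold relative to the markers. Lmf1 had 1.28-fold in CPM and 3.14-fold relative to the markers. Acsl1 and Fabp5 lay between, at 1.87-fold and 1.74-fold relative to the markers.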
